A study of Mus musculus with 6 samples.

Results

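The myosin light chains and the kinases that phosphorylate them were followed in hearts of young male mice with or without an activated human SRY transgene. The set held 10 genes, Myl1, Myl2, Myl3, Myl4, Myl6, Myl7, Myl9, Mylk, Mylk2 and Mylpf, taken by gene symbol from the 18138 symbols of the bead array table. They were picked with the difference between hSRY-ON and hSRY-OFF hearts already known, so that difference is given below as a description, as passing or missing the threshold used for all probes, and without a p-value. Of the 10 genes, 9 had 11 probes among the 25697 on the array. The symbol Myl9 and its older names matched 0 rows, and Myl9, the regulatory light chain of smooth muscle, was not analysed here. After the filter on dim probes, 9 probes for 8 genes remained among 12970 tested. The probe for Mylk2 and the second probe for Myl1 were above background on 0 of 6 arrays.

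RNA was taken from hearts of male mice at postnatal day 6 on the FVB/N background (FVB in the labels), 3 hearts per group. It was hybridized to Illumina mouse bead arrays. The methods name dissected tissues, without saying how much of the atria was included. hSRY-ON mice carried a single-copy Signalox-hSRY transgene at the H11 locus in its recombined form, in which the CAG promoter, active in most cell types, drives FLAG-tagged human SRY followed by an IRES and EGFP. Recombination had taken place in the zygote through Cre carried over from oocytes of Ddx4-Cre mothers, and the hSRY-ON mice on the arrays did not carry Ddx4-Cre themselves. hSRY-OFF mice are described in the methods as carrying the transgene with its floxed DsRed2 cassette still in place, whereas elsewhere in the study control littermates are described as Ddx4-Cre only or non-transgenic, so the exact control genotype is uncertain. The males of both groups have their own Sry, all transgenic mice derive from a single insertion, and the transgene was not restricted to the heart. Between 47.2% and 51.3% of probes were detected per array. Tissue identity was checked on cardiac myocyte markers, of which 13 of 14 had a probe and all 13 were detected well enough to be tested, among them Actc1, Myh6 and Tnni3. A single heart, hSRY-ON replicate 1, stood apart by Scgb1a1, a secretory protein of lung airways, at a normalized log2 intensity of 13.74 against 4.53 to 6.52 in the other 5 hearts, and results that rest on this heart are also given without it.

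Myosin of the hexameric type carries an essential and a regulatory light chain on the neck of each heavy chain, and each muscle type uses its own pair. In the mouse heart Myl2 and Myl3 are the ventricular regulatory and essential chains, Myl7 and Myl4 are the atrial ones, and Myl4 is also found in the embryonic ventricle and in fetal skeletal muscle. Myl1 and Mylpf belong to fast skeletal muscle, Myl6 and Myl9 to smooth muscle and non-muscle cells. Myosin light chain kinases are switched on by calcium and calmodulin and phosphorylate the regulatory chain. Mylk encodes the smooth muscle and non-muscle kinase, Mylk2 the skeletal muscle kinase and Mylk3 the cardiac kinase.

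Start site sequences of the members are shown because the set joins genes of different muscle types, and the CArG box, the site bound by serum response factor, is a shared element of many muscle genes. RefSeq (GRCm38.p6) gave 11 windows, from 250 bases before to 50 after a start, for 9 members. Myl2 and Myl6 had more than 1 start, and Mylk2 had no window. A CArG box was found on either strand in 4 of 11 windows, against 1.63% of 32851 windows over all genes. The 4 stretches below are written 5′ to 3′ on the strand of the gene, with the CArG box in capitals, and no other searched motif overlapped it.
Myl3, chr9:110763583-110763612, plus strand: gagccaatgcCCTTTTATGGccctgtccct
Myl6, chr10:128493040-128493069, minus strand: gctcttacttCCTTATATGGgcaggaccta
Myl7, chr11:5898824-5898853, minus strand: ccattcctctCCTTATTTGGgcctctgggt
Myl9, chr2:156775293-156775322, plus strand: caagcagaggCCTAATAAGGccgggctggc

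The first base of the box lay 85 bases before the start in Myl3, 50 in Myl6, 61 in Myl7 and 161 in Myl9. The letters AACAAT, a core bound by SOX and SRY proteins, were searched on both strands and occurred in 1 of 11 windows, that of Myl3, against 10.7% of all windows. In the stretch below the capitals mark it, and its first base lay 135 bases before the start.
Myl3, chr9:110763531-110763560, plus strand: ttcctgggcttgAACAATgccctctccagg

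The MEF2 motif was found in 0 of 11 windows, against 3.19% of all. None of these letters occurred in the windows of Mylk and Myl1, the members with the largest differences between the groups, whose 250 bases before an annotated start are given next for that reason. Which transcript of Mylk its probes read was not determined here, because the array table holds no probe sequences.
Mylk, chr16:34784700-34784949, plus strand: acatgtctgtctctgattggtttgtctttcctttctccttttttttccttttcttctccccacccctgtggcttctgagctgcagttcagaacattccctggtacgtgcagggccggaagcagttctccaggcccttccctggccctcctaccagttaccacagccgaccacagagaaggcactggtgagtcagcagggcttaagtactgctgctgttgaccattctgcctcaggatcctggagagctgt
Myl1, chr1:66945057-66945306, minus strand: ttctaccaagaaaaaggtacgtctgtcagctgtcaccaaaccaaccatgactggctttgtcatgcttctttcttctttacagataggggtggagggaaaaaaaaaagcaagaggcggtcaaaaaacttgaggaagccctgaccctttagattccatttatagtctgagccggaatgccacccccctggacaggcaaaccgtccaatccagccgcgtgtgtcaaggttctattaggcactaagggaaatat

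The signal of the kinase gene Mylk was higher in every hSRY-ON heart than in any hSRY-OFF heart, by about 10-fold on both probes. Which Mylk transcript gave that signal was not determined. The skeletal muscle essential chain Myl1 and the atrial essential chain Myl4 were lower. The ventricular chains Myl2 and Myl3, the atrial regulatory chain Myl7, and Myl6 and Mylpf did not pass the threshold, an adjusted p under 0.05 over all tested probes (limma, Benjamini-Hochberg). In all, 4 of 9 member probes passed it, 2 upwards and 2 downwards, where 27.5% of all tested probes did so, 13.8% upwards and 13.7% downwards. The groups did not overlap on 5 of 9 member probes and on 45.2% of all tested probes. Since the members were picked on this contrast, nothing is read from these counts. The median log2 difference, hSRY-ON minus hSRY-OFF, was -0.02 over the 9 member probes and -0.0046 over all tested probes. All hearts were measured as bulk tissue, in which fewer cells of a type and less RNA per cell cannot be told apart.

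Mylk, on chromosome 16 in RefSeq, was read by a pair of probes. The first gave normalized log2 intensities of 9.33, 9.20 and 9.46 in the hSRY-OFF hearts and 12.85, 12.39 and 12.73 in the hSRY-ON hearts. The second gave 8.82, 8.76 and 9.21 against 12.60, 12.13 and 12.44. On both probes the groups lay far apart, and replicate 2 was the lowest heart of either group. The log2 difference was 3.33 (SE 0.16, n = 3 per group) on the first probe, a 10.02-fold higher level, and 3.46 (SE 0.18) on the second, an 11.0-fold higher level. Without hSRY-ON replicate 1, which was the highest heart on both probes, the differences were 3.23 and 3.35. By size of increase the probes stood at places 22 and 19 of 12970. The deposited intensities of the first probe, before any correction, were 898, 874 and 645 in hSRY-OFF against 7032, 5368 and 6435 in hSRY-ON hearts, so that the separation was present in the raw values.

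**Figure D1:**
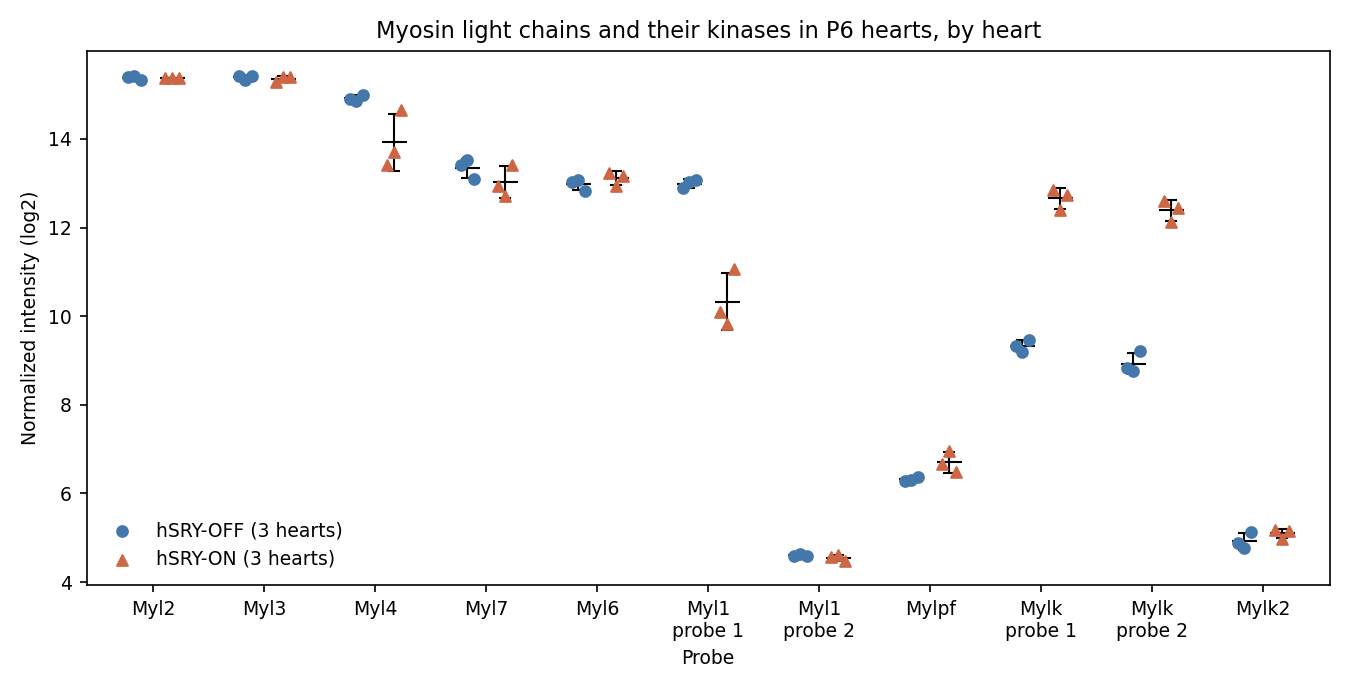
Normalized log2 intensity (vertical axes) of the 11 member probes in each of the 3 hSRY-OFF and 3 hSRY-ON hearts. Bars mark the group mean and SD. The second Myl1 probe and the Mylk2 probe were not above background. Both Mylk probes were higher in all hSRY-ON hearts, the first Myl1 probe and Myl4 were lower, and the Myl2, Myl3, Myl6 and Myl7 groups overlapped.

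The plot of member levels shows how unlike the spreads were. On the first Myl1 probe and on Myl4 the hSRY-OFF hearts sat close together. In hSRY-ON the same probes spread widely, with replicate 3 nearest to the controls.

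Among the light chains Myl1, the fast skeletal essential chain, showed the largest difference. Its normalized log2 intensity was 12.88, 13.03 and 13.07 in hSRY-OFF hearts and 10.10, 9.83 and 11.06 in hSRY-ON hearts. The groups did not overlap, and hSRY-ON replicate 3 was the highest of its group. The means were 12.99 ± 0.096 and 10.33 ± 0.65 (SD, n = 3), a log2 difference of -2.66 (SE 0.29), or a 6.33-fold lower level in hSRY-ON hearts. The second Myl1 probe read deposited intensities of 153, 165 and 132 in hSRY-OFF and 140.3, 144 and 132 in hSRY-ON hearts, none of them above background. The fall in Myl1 therefore rests on 1 probe. Without hSRY-ON replicate 1 its difference was -2.55, still past the threshold.

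Mylpf, the regulatory partner of Myl1 in fast skeletal muscle, was not called. Its probe was dim, with a hSRY-OFF mean of 6.32 against 12.99 for Myl1, too low to show an equal fall. Its log2 values were 6.28, 6.30 and 6.38 in hSRY-OFF and 6.67, 6.96 and 6.49 in hSRY-ON hearts. The difference of 0.38 (SE 0.15) did not pass the threshold, and it was 0.16 without background correction. Although the normalized groups did not overlap, the deposited intensities did, at 234, 251 and 186 against 225, 256 and 213. Mylk2, the skeletal muscle kinase, was not well above background in any heart, with deposited intensities between 151 and 173 across hSRY-OFF hearts and between 160.4 and 164 across hSRY-ON hearts.

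Most tested genes of the fast and fetal skeletal muscle list fell with Myl1, but not all of them. The list does not show which cells of the heart made the RNA. Myoz1, at 0.43, did not pass the threshold. Of 8 tested markers of fast and fetal skeletal muscle, 6 were lower and 1 was higher in hSRY-ON hearts, with a median log2 difference of -1.24, or -0.99 with genes undetected in a group at their bound. Casq1, the skeletal calsequestrin, fell by 3.32 on the log2 scale (SE 0.20, adjusted p = 7.28e-05, limma) and Acta1, skeletal alpha-actin, fell by 3.25 (SE 0.28, adjusted p = 0.000389). Tnni2, fast troponin I, fell by 1.91 and Myh8, the perinatal heavy chain, by 1.42. The member that rose was Actn3, the fast alpha-actinin, at least 3.10-fold higher and not well above background in hSRY-OFF hearts. Tnnt3, Tnnc2, Myh1, Myh2, Myh4, Mybpc1 and Myod1, which include the adult fast heavy chains, were above background on 0 of 6 arrays. In hSRY-OFF hearts, by contrast, Acta1 had a mean log2 intensity of 11.73 and Myl1 of 12.99. Myog, the myogenic factor, fell by 0.56 and Pvalb, parvalbumin, was at least 1.42-fold lower, not well above background in hSRY-ON hearts. Without hSRY-ON replicate 1, 5 of 7 tested markers fell and 0 rose, with Myh8 (-1.28) no longer past the threshold and Actn3 not tested. The summed normalized intensity of the 8 tested markers ran from 3844 to 5534 across hSRY-OFF hearts, and from 592 to 797 across hSRY-ON hearts. The part of skeletal muscle cells in the Myl1 difference was not tested.

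No difference was called for the ventricular chains, whose probes lay near the top of the scale. Myl2 gave log2 values of 15.39, 15.42 and 15.34 in hSRY-OFF hearts and 15.37 in each hSRY-ON heart. The identical hSRY-ON values arose because Myl2 was the fourth brightest probe on each of these arrays and quantile normalization gives the same value to the same rank. The log2 difference was -0.02 (SE 0.11), with a 95% confidence interval of -0.27 to 0.23. Myl3 read 15.42, 15.34 and 15.42 against 15.29, 15.39 and 15.39, a difference of -0.03 (SE 0.11), with an interval of -0.29 to 0.22. The hSRY-ON hearts lay within or beside the hSRY-OFF range for both genes. Deposited Myl2 intensities were 47247, 47958 and 38682 in hSRY-OFF hearts and 40901, 41536 and 40973 in hSRY-ON hearts, where the brightest probe of each array read between 43036 and 48079. Myl3 intensities ran from 39398 to 47529. Whether the signal was saturated there was not tested, and the intervals, set by ranks at the top of the arrays, bound the measured signal only and do not show that the RNA was unchanged.

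Of the atrial chains, Myl4 was called lower and Myl7 was not called. Myl4, the essential chain, read 14.89, 14.86 and 14.996 in hSRY-OFF hearts and 13.42, 13.71 and 14.65 in hSRY-ON hearts. The hSRY-ON hearts were all below the controls, but replicate 3 missed them by a small margin. The means were 14.91 ± 0.071 and 13.93 ± 0.64 (SD, n = 3), a log2 difference of -0.99 (SE 0.29), or a 1.98-fold lower level. The call was unstable when a heart was left out, and the cause was not tested. It was lost without hSRY-OFF replicate 1 (log2 difference -1.01), replicate 2 (-1.04) or replicate 3 (-0.93), without hSRY-ON replicate 1 (-0.73) or replicate 2 (-0.86), and when dim probes were kept in the test, and it held without hSRY-ON replicate 3, at -1.35.

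Myl7, the atrial regulatory chain, read 13.40, 13.51 and 13.09 in hSRY-OFF hearts and 12.94, 12.72 and 13.42 in hSRY-ON hearts. The groups overlapped, with hSRY-ON replicate 3 among the controls and hSRY-OFF replicate 3 below it. The difference was -0.30 (SE 0.21), with a 95% interval of -0.78 to 0.17. Replicate 3 was thus the highest hSRY-ON heart for Myl1, Myl4 and Myl7.

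**Figure D2:**
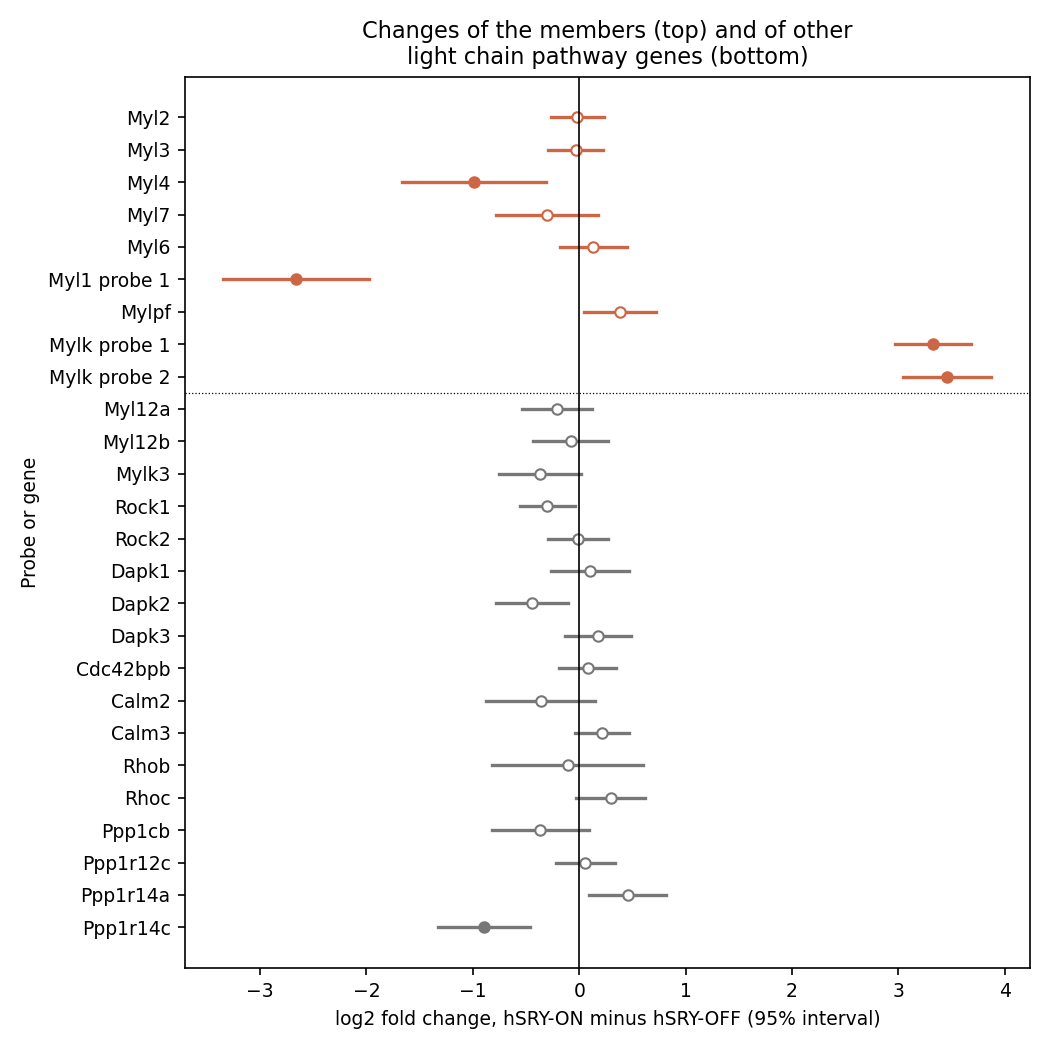
Log2 difference between hSRY-ON and hSRY-OFF hearts (horizontal axis) for each member probe and each tested gene of the light chain pathway, with 95% confidence intervals from limma. Both Mylk probes stand at 3.33 and 3.46 and Myl1 at -2.66, while Ppp1r14c, at -0.89, was the 1 pathway gene that passed the threshold.

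The difference between chamber forms was taken within each heart by subtracting the centred log2 values of a pair of probes. The change of Myl7 less that of Myl2, the atrial against the ventricular regulatory chain, was -0.29 (pooled SD 0.28), with the groups overlapping and single hSRY-ON hearts at -0.37, -0.59 and 0.11. For the essential chains, the change of Myl4 less that of Myl3 was -0.95 (pooled SD 0.43), with hSRY-ON hearts at -1.39, -1.21 and -0.26 and no overlap. Within the atrial pair, the change of Myl4 less that of Myl7 was -0.68 (pooled SD 0.34), at -1.10, -0.59 and -0.35 in the hSRY-ON hearts and at -0.09, -0.23 and 0.33 in the hSRY-OFF hearts. Since Myl2 and Myl3 read close to the array maximum and their values follow their ranks, the differences against them may not measure the change between chambers. All these values were chosen for comparison with the results known and were not tested.

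Chamber markers outside the light chains moved in both directions. Of 9 tested atrial markers 3 rose and 1 fell, with a median log2 difference of 0.15. Nppa (0.14, read near the top of the scale), Sln (-0.16), Mybphl (0.15), Nr2f2 (0.22) and Stard10 (0.09) did not pass the threshold. Dkk3 rose by 0.65. Bmp10, an atrial ligand, rose by 1.43 (SE 0.41, adjusted p = 0.0378, limma) and Gja5, the atrial and conduction system connexin, by 1.32 (SE 0.20, adjusted p = 0.00279), whereas Kcnj3, a channel subunit of the atrial acetylcholine-gated current, fell by 0.75 (adjusted p = 0.0178). Of 5 tested ventricular markers 4 fell and 1 rose, with a median of -0.79. Irx4, the ventricular homeobox factor, fell by 2.01 (SE 0.24, adjusted p = 0.00122) and Irx3 fell by 1.26 (adjusted p = 0.00336). Myh7, the slow heavy chain of the fetal ventricle, rose by 2.94 (SE 0.18, adjusted p = 8.25e-05). Of 13 cardiac myocyte markers common to both chambers, 5 fell and 1 rose, with a median of -0.21. Pln, phospholamban, fell by 1.47, Tnni3, cardiac troponin I, fell by 1.13, and Nkx2-5, a cardiac homeobox factor, rose by 0.68. Without hSRY-ON replicate 1 the calls were 3 up and 0 down among atrial markers and 1 up and 3 down among ventricular ones. There Kcnj3 (-0.73) and Irx5 (-0.55) no longer passed. Among the markers common to both chambers 1 rose and 3 fell without that heart. The part of atrial or ventricular cell number in the light chain values was not tested.

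In smooth muscle terms the set gave Mylk as its 1 increase. Myl6, the essential chain of smooth muscle and non-muscle cells, read 13.04, 13.08 and 12.83 in hSRY-OFF hearts and 13.23, 12.93 and 13.17 in hSRY-ON hearts. The groups overlapped, and the difference of 0.13 (SE 0.14, 95% interval -0.19 to 0.44) did not pass the threshold. Smooth muscle markers were divided. Of 7 tested, Tagln, transgelin, rose by 1.81 (SE 0.34, adjusted p = 0.00766, limma) and Acta2, smooth muscle alpha-actin, by 0.53 (SE 0.12, adjusted p = 0.0165), while Smtn, smoothelin, fell by 1.47 (SE 0.14, adjusted p = 0.000585) and Synpo2, synaptopodin 2, by 0.92 (SE 0.19, adjusted p = 0.0113). Myh11, the defining heavy chain of smooth muscle, stood at -0.42, Myocd at 0.30 and Actg2 at 0.62, none past the threshold, and Cnn1 and Lmod1 were above background on 0 of 6 arrays. The summed normalized intensity of the 7 tested markers ran from 31711 to 39227 across hSRY-OFF hearts, and from 42011 to 46909.8 across hSRY-ON hearts. Acta2 made up 76.6% to 90.5% of that sum, and without it the sum ran the other way, from 6810.2 to 9190 across hSRY-OFF hearts and from 4007 to 5495 across hSRY-ON hearts. Without hSRY-ON replicate 1, in which Tagln was highest, Tagln stood at 1.41 and still passed, while Acta2, at 0.48, did not. Of 6 pericyte markers 2 fell and 0 rose, Abcc9 (-0.74) and Notch3 (-0.49), and neither passed without hSRY-ON replicate 1. The part of smooth muscle cells in the Mylk difference was not tested.

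**Figure D3:**
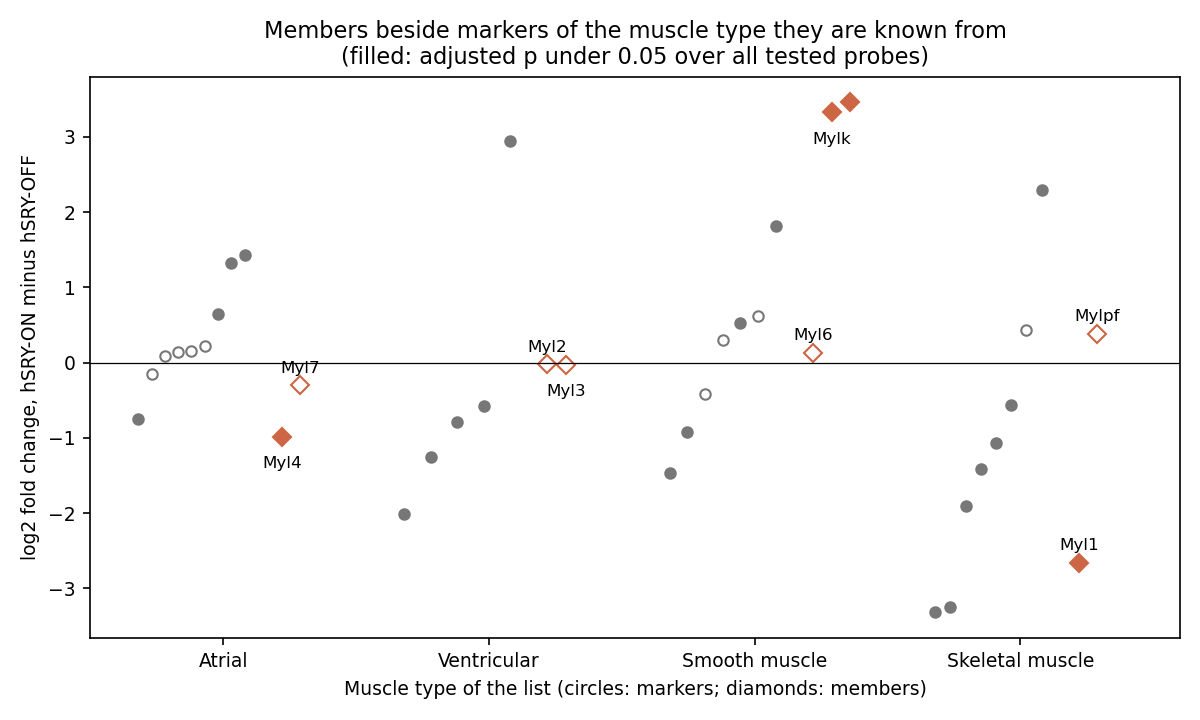
Log2 difference between hSRY-ON and hSRY-OFF hearts (vertical axis) of the light chain and kinase probes beside markers of atrial, ventricular, smooth muscle and skeletal muscle cells, a point per probe or gene, filled where it passed the threshold and with genes undetected in a group at their fitted value. Mylk, at 3.33 and 3.46, lies above every tested smooth muscle marker, the highest of which is Tagln at 1.81, and Myl1, at -2.66, lies within the range of the skeletal muscle markers.

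In the rest of the light chain pathway a single tested gene passed the threshold. From a list of 30 genes, 24 had a probe and 17 were tested, and of these 0 rose and 1 fell, or 5.88% called against 28.8% of all 9660 genes tested by their brightest probe, of which 14.9% rose and 13.9% fell. The median log2 difference of the 17 was -0.08. The gene that fell was Ppp1r14c, an inhibitor of protein phosphatase 1, with log2 values of 8.50, 8.16 and 7.87 in hSRY-OFF hearts and 7.49, 7.11 and 7.25 in hSRY-ON hearts. Its groups did not overlap, and the difference was -0.89 (SE 0.19, adjusted p = 0.0111, limma). Ppp1r14a, CPI-17, the inhibitor of myosin phosphatase in smooth muscle, lay the other way at 0.45 (SE 0.15, adjusted p = 0.0637), short of the threshold. The catalytic subunit Ppp1cb stood at -0.37 (adjusted p = 0.203, limma). A dimmer Ppp1cb probe stood at -0.57 (adjusted p = 0.0896, limma), and its groups did not overlap. The targeting subunit Ppp1r12c stood at 0.06 (adjusted p = 0.756), and its dimmer probe disagreed at -0.63 (adjusted p = 0.0727).

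Other kinases able to phosphorylate regulatory light chains did not pass the threshold. Mylk3, the cardiac light chain kinase, read 11.52, 11.30 and 11.21 in hSRY-OFF hearts and 11.26, 10.74 and 10.93 in hSRY-ON hearts. Its groups overlapped, and the difference was -0.37 (SE 0.17, adjusted p = 0.14, limma). A further Mylk3 probe stood at -0.10. Dapk2, at -0.45 (SE 0.14, adjusted p = 0.0557), and Rock1, at -0.30 (SE 0.11, adjusted p = 0.0853), were lower in all hSRY-ON hearts without passing. Rock2, Dapk1, Dapk3 and Cdc42bpb lay between -0.01 and 0.18 on their brightest probes, and a dimmer Dapk1 probe stood at -0.24. The other regulatory chains, Myl12a at -0.21 and Myl12b at -0.08, and the calmodulins and small GTPases upstream, Calm2 at -0.36, Calm3 at 0.21, Rhob at -0.11 and Rhoc at 0.29, did not pass either. Myl6b, Myl10, Cit and Rhoa were above background on 0 of 6 arrays, Prkg1 and Mylip on too few to be tested, and Mylk4, Cdc42bpa, Cdc42bpg, Ppp1r12a, Ppp1r12b and Ppp1r14b were not analysed here.

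**Figure D4:**
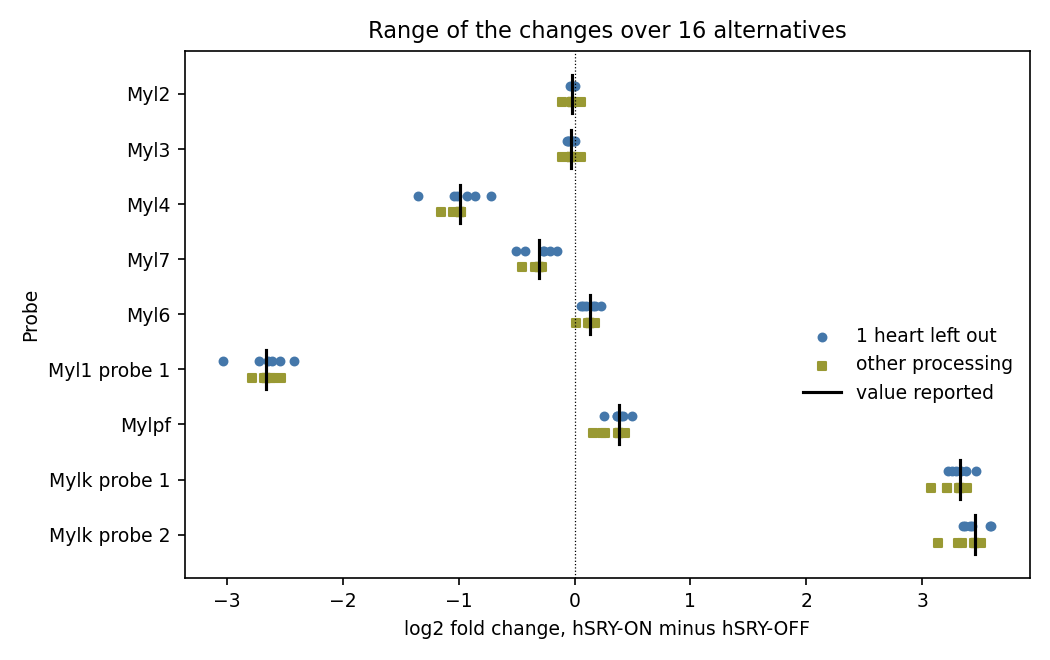
Log2 difference between hSRY-ON and hSRY-OFF hearts (horizontal axis) of each member probe under the reported processing and under 16 alternatives, among them leaving out each heart in turn. Mylk stayed between 3.08 and 3.598 and Myl1 between -3.03 and -2.42, while Myl4 ranged from -1.35 to -0.73 and was called under 10 of the 16.

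The plot of alternatives shows the range of each member. Myl2 and Myl3, read near the top of the scale, stayed close to 0 and changed sign under some settings, and Myl7 stayed below 0 under all 16 without passing the threshold.

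The genes whose profile over the 6 arrays was most like that of a member were found from the root mean square difference of centred log2 values. For the second Mylk probe they were LOC100046120, at 0.195, and Tnnt1, the slow skeletal troponin T, at 0.204, with log2 differences of 3.32 and 3.51 between the groups. For Myl1 they were Itgb1bp2, melusin, at 0.167 and LOC100046690 at 0.183. Myl4 was nearest to Zcchc5 (0.069) and Ebf2 (0.147), Myl7 to Obfc1 (0.039) and Tmem183a (0.041), and Myl2, nearly flat, to Hdlbp (0.021) and Mlf2 (0.022). These distances are a description over 6 arrays of 2 groups.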

How the data were processed

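Total RNA from hearts was labelled as biotin cRNA and hybridized to Illumina MouseRef-8 v2.0 arrays by the authors. They deposited a table of non-normalized bead intensities with a detection p-value per probe and array. The bead summary software and its settings are not given in the sources used here. The methods name the R package TCC without settings and the submitters' processing notes name limma. Nothing in the labels says more of the hearts than that they are separate samples, called biological triplicates in the methods. All 6 arrays were mapped to a group by their titles, and no pair held identical values.

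The deposited intensities were background corrected by normexp fitted from detection p-values with an offset of 16, quantile normalized and log2 transformed (limma 3.58.1, R 4.3.3). Probes with a detection p under 0.05 on at least 3 of 6 arrays were tested between the groups with lmFit and eBayes, and p-values were adjusted by Benjamini-Hochberg over all 12970 tested probes. Other genes are given by their brightest probe, with Myl10, Myl12a, Myl12b and Mylk3 matched through older symbols. A marker not detected on any array of a group is given as a bound. Figures were drawn with matplotlib 3.10.9 under Python 3.11.15. The fit was tested on simulated data, in which most of the smaller planted changes and some of the larger ones were missed. The number of hearts limits the precision, and no depth applies to arrays.

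Named were all member probes, every tested pathway gene, the called markers with the largest increases and decreases within each list (at most 2 of each), those of the atrial, ventricular and smooth muscle lists where a result turns on them, and the nearest profiles of Myl7, Myl4, Myl2 and the members that rose and fell most. Not every item of the lists is reported here. Members, lists and tests were chosen with earlier results of these data known. Fast skeletal markers named beyond this rule (Tnni2, Myh8, Myog, Pvalb and Myoz1) were added after their values were seen. Lists of pericyte, fibroblast, endothelial, erythroid, brown fat, lung, liver and thymus markers were also counted. Marker lists were counted again without hSRY-ON replicate 1, an alternative chosen after seeing the data. Alternatives covered background, normalization, filter, a replicate block and leaving out each heart.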

Additional observations from a re-analysis of the deposited data

How the results depend on the processing

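All alternatives kept 3 or 4 of the 9 member probes past the threshold, and the calls of Mylk and Myl1 and their directions held under all 16. The number of tested probes called, 3567, was 1897 without normalization between arrays, where 38.5% of calls were upwards against 50.1% and the median of all probes was -0.12 and limma gave all probes the same SE of 0.30, and it ranged from 2206 (without hSRY-OFF replicate 1; 2255 without hSRY-ON replicate 1) to 3669 when a heart was left out. Pathway genes called, 1 in the fit reported, were 3 without background correction (Rock1 and Dapk2 added), 2 with normexp fitted without negative controls at an offset of 50, 2 with detection at 0.01 and 2 with detection on all 6 arrays, and 1 to 4 when a heart was left out, 4 without hSRY-OFF replicate 3. Scaling in the manner of TCC gave Myl2 0.058 and Myl3 0.057. With a heart left out Myl2 ranged from -0.042 to 0.0020 and Myl3 from -0.064 to 3.36e-05. Myl4 was the 1 member whose call was lost, under 6 of 16 alternatives, and the cause was not tested. The change of Myl7 less that of Myl2 was -0.34 without normalization between arrays and lay between -0.48 and -0.14 under further alternatives chosen after seeing the data.

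Deviations of hearts with the same replicate number gave correlations of -0.0248, 0.0375 and -0.0655. With 3 hearts per group these values cannot show whether the numbers pair the samples, and the labels do not say. A replicate block gave 2842 called probes, 4 member probes and 1 pathway gene.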

Other observations

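Markers of other cell types and tissues in the same hearts gave further values. Of 7 tested fibroblast markers Tcf21, a factor of epicardial and fibroblast cells, rose by 0.76 on the log2 scale and 0 fell, with a median of 0.05. Of 6 endothelial markers 2 rose and 2 fell, with a median of -0.12, namely Eng (0.75), Emcn (0.53), Cdh5 (-0.72) and Tek (-0.45). Without hSRY-ON replicate 1, Emcn (0.44) and Tek (-0.38) did not pass, which left 1 up and 1 down. Of 5 erythroid markers 1 fell, Hbb-b1, a beta globin, at -1.29, with a median of -0.50.

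Of 3 tested brown fat markers 2 rose, with a median of 1.48. Ucp1, the uncoupling protein of brown fat, read 4.64, 5.03 and 8.88 in hSRY-OFF and 10.81, 8.80 and 9.94 in hSRY-ON hearts, so that hSRY-OFF replicate 3 lay within the hSRY-ON range, and the fitted difference was 3.67 (SE 1.07, adjusted p = 0.0395, limma). Adipoq, adiponectin, stood at 1.48, and Cidea, at -1.05, did not pass the threshold. Without hSRY-ON replicate 1, Ucp1 (3.20) and Adipoq (1.18) stayed higher but no longer passed, and Cidea (-1.39) was called lower. Both tested liver markers rose, with a median of 2.62 (2.51 with Ttr at its bound). Ahsg, fetuin A, rose by 3.07 (SE 0.35, adjusted p = 0.00108, limma). Ttr, transthyretin, was at least 3.87-fold higher in hSRY-ON hearts and not well above background in hSRY-OFF hearts. Without hSRY-ON replicate 1, Ahsg still passed (2.73) and Ttr was not tested. Alb, albumin, and Fgb, fibrinogen, were above background on 0 of 6 arrays. Of the lung markers Sftpb, the 1 tested, did not pass the threshold, and Scgb1a1, detected in too few hearts to be tested, read 13.74 in hSRY-ON replicate 1 and 4.67 and 4.801 in the other hSRY-ON hearts. Both tested thymus markers did not pass the threshold.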
